A study of Mus musculus with 2 samples.

Results

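The genes described here encode enzymes that attach ubiquitin to proteins or take it off again. They were found in brown adipose tissue by the start of their symbols: Ube2 (UBE2 conjugating enzymes), Ube3 (UBE3 ligases), Usp followed by a digit (USP deubiquitinases), Trim followed by a digit (TRIM ligases), and Fbxo, Fbxl or Fbxw followed by a digit (3 classes of F-box protein). The deposited table held 10761 gene symbols, of which 141 matched, and 134 of these had a mean of at least 1 FPKM over both libraries, out of 9870 genes that did. FPKM counts the fragments of a transcript per kilobase of its length, scaled to the size of the library. The 134 kept genes were 32 UBE2, 3 UBE3, 30 USP, 27 TRIM, 22 FBXO, 12 FBXL and 8 FBXW genes. The filter left out Usp45, Fbxl22, Usp28, Fbxo2, Trim33, Fbxo32 and Trim63, whose means ran from 0.10 to 0.74 FPKM. The kept genes nearest to the filter were Trim14 at 1.09 and Trim72 at 1.10.

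All mice were male C57BL6/J, 8 to 12 weeks old, and were fed for 10 days on chow in which fat gave 60% of the calories. The HFD control group had this diet alone, as far as the labels say. The SML group was also injected intraperitoneally with SML, 5 mg/kg. Sesaminol, a sesame lignan, is named in the title of the series, and the labels give no vehicle for the control and no number of animals per library. Each group was 1 library, of 11995913 estimated fragments for HFD control and 8502352 for SML, so every difference below is between 2 libraries, has no replicate check and carries no test. The 14 brown adipocyte markers in the table summed to 76694 FPKM for HFD control and 66284 for SML, and of the 13 kept 2 were higher and 0 lower by the size rule given below.

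Ubiquitin is a small protein that is activated by an E1 enzyme, passed to an E2 conjugating enzyme and joined to a target with the help of an E3 ligase. Chains of ubiquitin can send the target to the proteasome or change its location and partners, and deubiquitinases cut them off. F-box proteins are the parts of cullin-RING ligases that pick the target, while TRIM proteins and the HECT ligases of the UBE3 family act as ligases themselves. In fat and muscle these enzymes set how long metabolic and contractile proteins last.

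The size rule asked for a difference of at least 1.5-fold in FPKM + 1 between the libraries, SML against HFD control, a scale that understates the difference of genes with low values. By this rule 5 of the 134 members were higher (3.73%) and 5 were lower (3.73%). Over all 9870 genes 5.45% were higher and 5.74% lower, 11.2% in either direction, so the members' shares were below those of all genes. The higher members included Ube3a, Usp16, Ube2v2 and Ube2q2. The lower ones were Trim54, Trim72, Ube2l6, Trim35 and Fbxl8. The other 124 members lay within 1.5-fold on this scale, though some, such as Fbxo3 with a ratio of 1.53, were past it in scaled counts. The median difference of all 134 was 0.03 on the log2(FPKM + 1) scale beside 0.00 for all genes. The quartiles of the members, -0.20 and 0.22, were close to those of all genes, -0.21 and 0.22. Together the members that were kept held 1904 FPKM in HFD control and 1894 in SML.

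**Figure D1:**
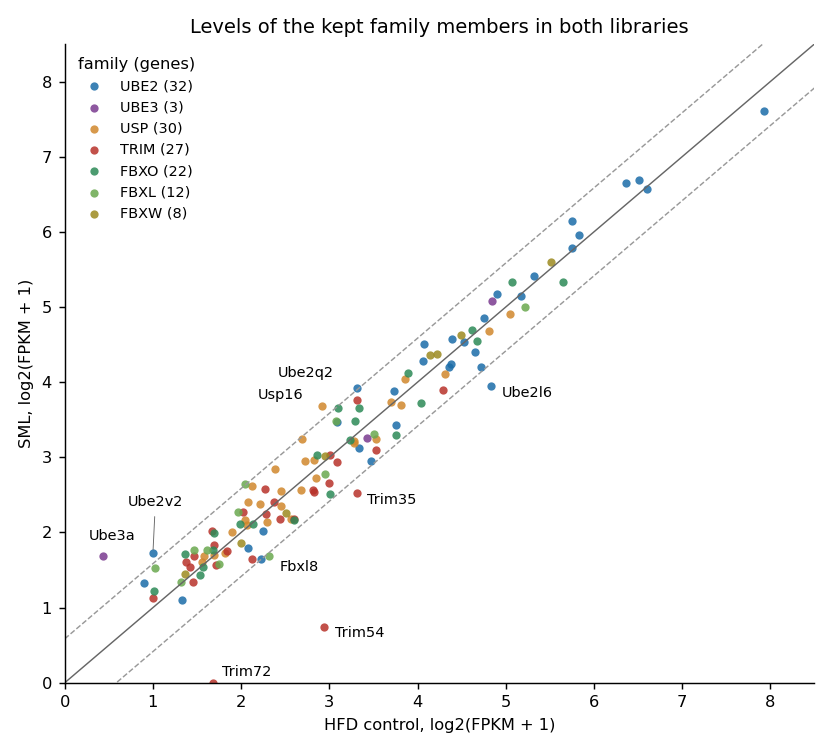
Level of each of the 134 kept members in HFD control (horizontal) and SML (vertical), both as log2(FPKM + 1), coloured by family, with the line of equality and dashed lines at 1.5-fold. The 9 named points are members past 1.5-fold. Trim54 and Trim72 lie farthest below the line and Ube3a farthest above it.

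The families differed in level more than in their difference between the libraries. UBE2 genes were the most abundant, with a median level of 19.9 FPKM over both libraries, followed by FBXW at 12.5, UBE3 at 9.18, FBXO at 7.56, USP at 5.17, TRIM at 3.80 and FBXL at 3.24. The ranges between quartiles overlapped for all neighbours in this order, for example 8.72 to 36.2 FPKM for UBE2 and 3.87 to 19.7 for FBXW. The UBE2 range lay wholly above the TRIM range of 2.26 to 5.82. The median difference was 0.02 for UBE2, 0.24 for UBE3, 0.04 for USP, 0.09 for FBXO, 0.08 for FBXL, 0.08 for FBXW and -0.10 for TRIM. TRIM was the one family with a median below 0, and its members summed to 134.4 FPKM (HFD control) and 113.4 FPKM (SML). All of these medians lay within 0.25 of that of all genes, and the 3 UBE3 genes are too few for a median to say much.

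**Figure D2:**
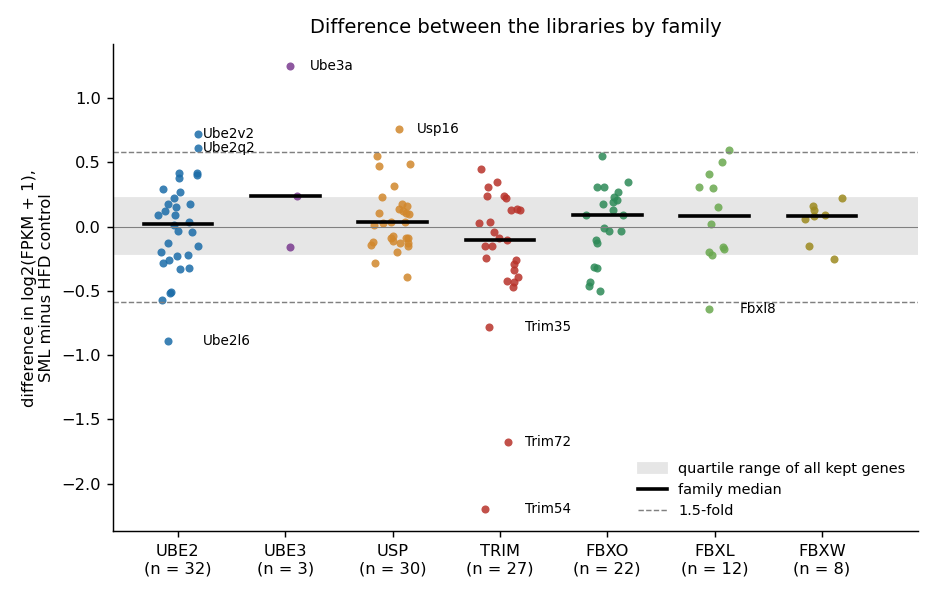
Difference between the libraries for each kept member, as log2(FPKM + 1) in SML minus HFD control, in 7 columns by family. Black bars are family medians, the grey band spans the quartiles of all kept genes (-0.21 to 0.22) and dashed lines mark 1.5-fold. Most points sit near the band, and the 3 TRIM genes past the lower line are Trim35, Trim72 and Trim54.

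Among the UBE2 genes, most of which carry activated ubiquitin or a related modifier, Ube2m stood highest. It loads NEDD8, the modifier that switches on cullin ligases, and had 242.79 FPKM in HFD control and 194.02 in SML. Its ratio of scaled counts was 0.838, with a 95% exact interval of 0.792 to 0.887. Such intervals, given for all ratios below, treat recovered fragments as independent and cover counting error only. Ube2f, the other NEDD8 enzyme, stood at 52.74 and 54.07 FPKM with a ratio of 1.02 (0.919 to 1.14). Ube2s, which extends chains for the anaphase-promoting complex, had 90.29 and 102.36 FPKM, and Ube2d3, a general partner of many RING ligases, had 96.15 and 93.79. The ratio was 1.13 (1.03 to 1.24) for Ube2s and 0.974 (0.922 to 1.03) for Ube2d3. None of these 4 abundant genes came near 1.5-fold.

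A pair of the 32 UBE2 genes was higher in the SML library (6.25%, beside 5.45% of all genes). Ube2v2, a variant without catalytic cysteine that helps Ube2n build chains linked through lysine 63, had 1.00 FPKM in HFD control and 2.30 in SML, from 76 and 128 fragments. Its count ratio was 2.29 (1.71 to 3.08). Its partner Ube2n had 19.83 and 17.98 FPKM with a ratio of 0.905 (0.818 to 1.00), and the related variant Ube2v1, at 81.59 and 99.83 FPKM, had a ratio of 1.22 (1.14 to 1.30). Ube2q2, a less studied conjugating enzyme, had 8.94 and 14.13 FPKM, a ratio of 1.58 (1.36 to 1.84). Ube2b, the enzyme that marks histone H2B and PCNA, stood below the rule at 52.68 and 69.92 FPKM with a ratio of 1.32 (1.23 to 1.43).

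Ube2l6, the conjugating enzyme for the interferon-induced modifier ISG15, was the lowest UBE2 gene in the comparison. It had 27.50 FPKM in HFD control and 14.40 in SML, from 440 and 169 fragments, and was 1.92-fold lower (1.60 to 2.30). The E1 enzyme that works before it, Uba7, was lower too, with 6.73 and 4.10 FPKM, or 1.65-fold (1.32 to 2.06). The modifier Isg15 itself had 17.81 and 18.81 FPKM with a ratio of 1.05 (0.805 to 1.36), and Usp18, which removes ISG15, had 4.46 and 4.13 FPKM with a ratio of 0.925 (0.662 to 1.28). Trim25, an interferon-induced ligase that can also use ISG15, had a ratio of 1.25 (1.02 to 1.52). Of the ISG15 genes, the 2 that load the modifier were thus lower and the others were within 1.5-fold.

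Ube2l6 was the only one of 9 kept family members linked to interferon that was past the rule. That is 11.1%, close to the 11.2% of all genes past it in either direction. The list also held Usp18 and 7 TRIM genes, and their median difference was 0.13. Trim12a, Trim12c and Trim34a lie on chr7 between positions 104244457 and 104353362, with gaps between them. All are in a cluster of rodent antiviral TRIM genes so alike that fragments may be shared among them. They had ratios of 1.30 (0.910 to 1.85), 1.26 (0.903 to 1.75) and 0.889 (0.567 to 1.38). Trim21, a receptor for antibody inside cells, had 1.18 (0.831 to 1.66), Trim14 had 1.19 (0.733 to 1.92) and Trim26 had 1.02 (0.846 to 1.22). Beside them, 11 of 31 interferon response markers were lower (35.5%) and 0 higher, against 5.74% and 5.45% of all genes. Their summed levels were 1024 FPKM in HFD control and 629.8 in SML. Macrophage markers were lower for 9 of 17 (52.9%) and higher for 1 (5.88%). They had sums of 539.9 and 331.4 FPKM and none at 0 in either library. The part of these cells in the Ube2l6 value was not tested.

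The other modifiers showed smaller differences. Genes of the modifier SUMO differed in both directions, with ratios of 1.38 (1.28 to 1.48) for Sumo2 and 0.675 (0.592 to 0.767) for Sumo3, neither past the rule. Uba3, a subunit of the NEDD8 E1, had 14.88 and 21.56 FPKM and a ratio of 1.46 (1.28 to 1.65), and Nedd8 had 0.842 (0.769 to 0.920). Differences within 1.5-fold are given as values only. For the 9 enzymes known to build chains of the K48, K63 or K11 type, 0 were past the rule and the median difference was 0.18. Of all genes 11.2% were past it in either direction, and 9 genes are too few to set against this share. This list was not limited to the symbol patterns.

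Of the 3 UBE3 genes, Ube3a had the largest difference of any higher member. It encodes E6AP, the founding HECT ligase, and had 0.35 FPKM (HFD control) and 2.22 FPKM (SML), from 22 and 102 fragments. The count ratio was 6.31 (3.94 to 10.5). Its mean of 1.28 FPKM lay just above the filter, and it passed only through its SML value. The gene lies at chr7:59228750-59311536 on the plus strand (GRCm38), and exons of Snhg14, 9330162G02Rik and Gm44560 overlap its own exons on the other strand. No source used here says whether the libraries kept strand, so fragments of these genes cannot be told apart from those of Ube3a. Such overlap was found for 40 of the 140 listed members with an annotated gene of the same symbol. Ube3b, at 27.65 and 32.86 FPKM, and Ube3c, at 9.76 and 8.60, had far more fragments and ratios of 1.19 (1.11 to 1.27) and 0.881 (0.775 to 0.999).

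The USP deubiquitinases were the family with the narrowest spread among the large ones, with quartiles of -0.12 and 0.16. Of 30 USP genes 1 was higher (3.33%, beside 5.45% of all genes) and 0 were lower (beside 5.74%). Usp16, which takes ubiquitin off histone H2A, was the 1 higher member. It had 6.58 FPKM in HFD control and 11.84 in SML, from 239 and 316 fragments, and a ratio of 1.80 (1.51 to 2.13). It lies at chr16:87454703-87483517 on the plus strand and overlaps Cct8 on the other strand. The most abundant USP genes were Usp5, which recycles free chains, with 31.98 and 28.88 FPKM, Usp4 with 27.10 and 24.66 and Usp19 with 18.89 and 16.27. Their ratios ran from 0.874 for Usp19 to 0.909 for Usp4. Usp14, the deubiquitinase on the proteasome, had a ratio of 1.03 (0.910 to 1.16), Usp7 of 1.12 (0.968 to 1.29) and Usp22, of the SAGA complex, of 0.912 (0.760 to 1.09). The lowest was Usp20 at 0.716 (0.578 to 0.884), within 1.5-fold.

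The TRIM family held the largest differences of all members, and the 2 lowest genes were muscle ligases. Trim54 (MuRF3) is a microtubule and sarcomere protein of striated muscle. It had 6.70 FPKM in HFD control and 0.68 in SML, from 120 and 9 fragments, and was 9.82-fold lower (5.00 to 22.0). Trim72 (MG53), which repairs the muscle membrane, had 2.21 and 0.00 FPKM, from 67 and 0 fragments. Set against a floor of 3 fragments in the SML library, which is the limit that a count of 0 allows, Trim72 was at least 16.4-fold lower. This floor takes the HFD control fragments as exact, and the exact 95% interval of the ratio put the bound at 13.0-fold. Each had under 1 FPKM in SML and passed the filter through its HFD control value. On the other strand, exons of Gm15469 overlap those of Trim54 and exons of Gm15533 overlap those of Trim72.

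The other members on the muscle ligase list lay below the filter. Trim63 (MuRF1), a ligase that drives muscle wasting, had 1.42 and 0.06 FPKM, from 32 fragments and 1, a ratio of 0.0427 (0.00104 to 0.254). Fbxo32 (atrogin-1), the F-box protein known for the same process, had 1.06 FPKM in HFD control and was listed at 0 in SML. Its scaled counts were 60.54 and 40.70, a ratio of 0.672 (0.463 to 0.963), so the listed 0 was not an absence of fragments. Fbxl22, a sarcomere F-box protein, was likewise listed at 0 in SML with a count ratio of 1.14 (0.692 to 1.88), and it shares its deposited span with Herc1 and Usp3. In the counts the 3 TRIM genes of this list thus differed by far more than its 2 F-box genes, a contrast seen in these values and not tested.

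Muscle transcripts as a whole were lower in the SML library. Of 30 kept skeletal muscle markers 30 were lower and 0 higher, with a median difference of -3.32. All 31 markers in the table summed to 5569 FPKM in HFD control and 568.7 in SML, with none at 0. In bulk tissue fewer cells of a type and less RNA per cell cannot be told apart, and the part of muscle fibres in the Trim54 and Trim72 values was not tested. Of the 27 kept TRIM genes 3 were lower (11.1%) and 0 higher, beside 5.74% and 5.45% of all genes. Without the muscle list 1 of 25 TRIM genes was lower, beside the same 5.74%, and the TRIM median was -0.09. The 132 members outside the list had 5 higher (3.79%) and 3 lower (2.27%), against 5.45% and 5.74% of all genes.

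The promoters of Trim54 and Trim72 are shown because both genes are known from muscle and both were far lower. Each run covers 250 bases before to 50 after the RefSeq start (GRCm38.p6, plus strand), at chr5:31116362-31116661 for Trim54 and chr7:128004128-128004427 for Trim72, in lower case with any CAGCTG, an E-box bound by muscle factors such as MyoD, in capitals.
Trim54: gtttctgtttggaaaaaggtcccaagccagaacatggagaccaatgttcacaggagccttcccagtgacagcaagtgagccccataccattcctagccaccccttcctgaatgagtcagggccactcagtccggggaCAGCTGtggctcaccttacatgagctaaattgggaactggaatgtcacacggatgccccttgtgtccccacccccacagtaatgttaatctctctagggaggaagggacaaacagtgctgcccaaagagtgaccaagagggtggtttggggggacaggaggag
Trim72: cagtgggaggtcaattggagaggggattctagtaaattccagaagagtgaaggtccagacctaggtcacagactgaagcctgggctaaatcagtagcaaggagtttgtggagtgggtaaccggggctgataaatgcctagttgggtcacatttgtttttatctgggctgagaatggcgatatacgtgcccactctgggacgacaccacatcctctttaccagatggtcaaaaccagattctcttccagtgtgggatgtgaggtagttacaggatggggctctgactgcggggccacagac
The motif was found 1 time for Trim54 and 0 times for Trim72. It is its own reverse complement, so both strands are covered, and 16.3% of 32851 promoters of this length hold it, as do 20.6% of 102 kept members with a promoter in the table. 4 other motifs were searched on both strands of the same windows: the interferon-stimulated response element (3.44% of all promoters, 6.86% of the 102 members), the circadian E-box CACGTG (7.15% and 7.84%), the TATA box TATAAA (13.6% and 4.90%) and the GAS element TTCNNNGAA (8.30% and 2.94%). None of these 4 was found for Trim54, Trim72 or Ube2l6 (0 matches each), which says only that the letters are not in these windows. The promoters of the 102 members had a median GC content of 64.3%, against 52.7% for all promoters. The part of base content in the motif shares was not tested. For each member only the promoter nearest to its deposited start was used.

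Trim35 was the other lower TRIM gene. It is a ligase studied for its action on the glycolytic enzyme pyruvate kinase, and it had 8.91 FPKM in HFD control and 4.77 in SML, from 414 and 163 fragments. It was 1.87-fold lower (1.56 to 2.26), and its deposited span is shared with 1700001G11Rik on the other strand. Trim28 (KAP1), a corepressor and the most abundant TRIM gene, had 18.53 and 13.95 FPKM with a ratio of 0.752 (0.665 to 0.848), and Trim3 had a ratio of 0.718 (0.601 to 0.854). At the other end Trim44, a TRIM-like protein with a deubiquitinase-type zinc finger, had 8.95 and 12.60 FPKM and a ratio of 1.41 (1.26 to 1.57). Of the 27 TRIM genes 11 had a difference above 0 and 16 below it.

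Of 42 kept FBXO, FBXL and FBXW genes 1 was higher and 1 lower (2.38% each), both FBXL. Over all genes 5.45% were higher and 5.74% lower. Fbxl8 had 3.99 and 2.21 FPKM, from 91 and 37 fragments, and was 1.81-fold lower (1.22 to 2.73). The abundant FBXL genes Fbxl6 and Fbxl15 had ratios of 0.854 (0.758 to 0.961) and 0.852 (0.658 to 1.10), and Fbxl5, the iron sensor that controls IRP2, had 1.37 (1.15 to 1.64). Fbxl20 had 1.16 (0.957 to 1.41).

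No gene of the 22 FBXO and 8 FBXW genes was past the rule, beside 11.2% of all genes in either direction. Fbxo3 came closest, with 7.59 and 11.61 FPKM and a ratio of 1.53 (1.35 to 1.74) in counts but a difference of 0.55 on the log2(FPKM + 1) scale. Fbxo4 was the lowest, with a ratio of 0.666 (0.544 to 0.813). Fbxo7, a partner of the mitochondrial quality control protein Parkin, had 12.56 and 8.85 FPKM and a ratio of 0.703 (0.572 to 0.861). The most abundant FBXO genes, Fbxo6, Fbxo9 and Fbxo18, ran from a ratio of 0.798 to 1.19. Among FBXW genes the ratios lay between 0.805 for Fbxw9 and 1.17 for Fbxw8. Fbxw7, which targets MYC, cyclin E and SREBP proteins, had 1.58 and 1.74 FPKM and a ratio of 1.10 (0.770 to 1.57), where 74 and 60 fragments leave a wide interval.

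**Figure D3:**
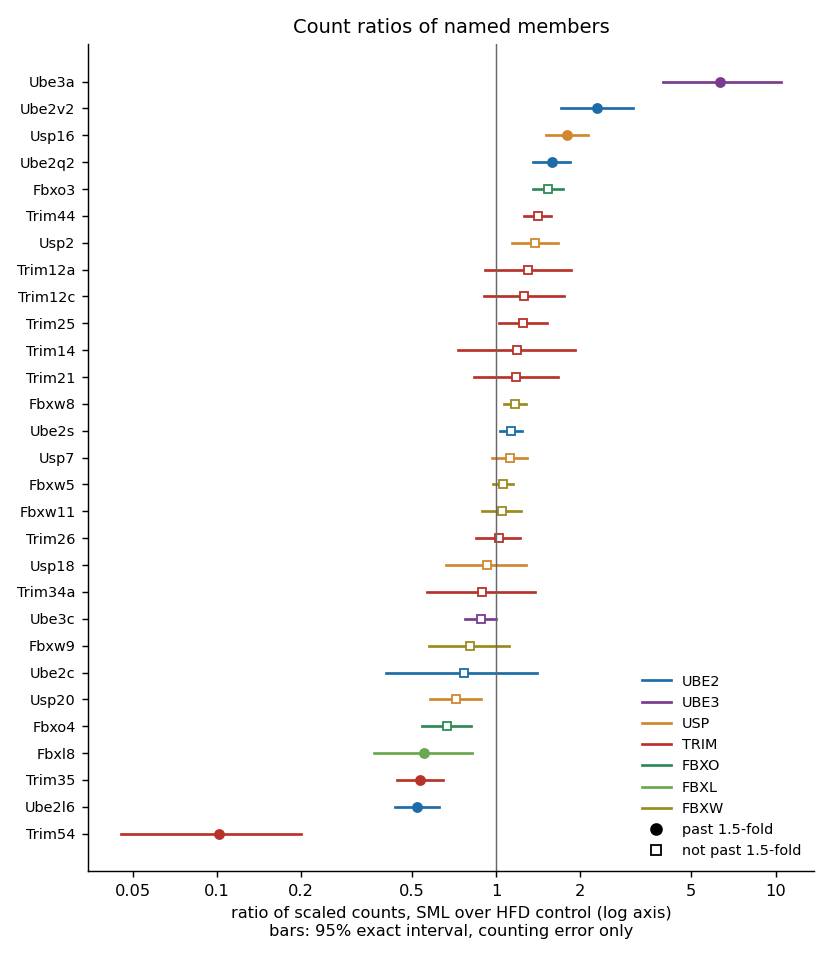
Ratio of scaled counts, SML over HFD control, for 29 named members on a log axis, with bars for the 95% exact interval from counting error alone and colours by family. Filled circles are members past 1.5-fold on the FPKM + 1 scale and open squares are not. Trim72, with 0 fragments in SML, has no point. The interval was narrow for Ube2s (1.03 to 1.24), with many fragments, and wide for Ube3a (3.94 to 10.5) and Trim54, with few.

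Usp2, a deubiquitinase under strong clock control, had 5.62 and 6.75 FPKM and a count ratio of 1.38 (1.14 to 1.66), and Fbxw11 (beta-TrCP2), which acts on PER proteins, had 1.05 (0.892 to 1.23). Beside these, 6 of 14 clock genes were higher (42.9%) and 1 lower (7.14%), against 5.45% and 5.74% of all genes. Of the cell cycle members Ube2c, which works with the anaphase-promoting complex, had 3.21 and 2.47 FPKM from 32 and 18 fragments and a ratio of 0.765 (0.404 to 1.40), and its exons overlap those of the muscle gene Tnnc2 on the other strand. Fbxw5, at 44.74 and 47.32 FPKM, had 1.06 (0.971 to 1.15). Ube2o, an E2 and E3 hybrid known from red cell maturation, was the 1 kept erythroid member, with a ratio of 0.810 (0.656 to 0.996), while 6 of 8 erythroid markers were lower.

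The direction of the differences went with the base composition of the transcripts. Across the 134 members the difference had a Spearman rank correlation of -0.48 with the GC content of the annotated transcripts and of 0.15 with their length, against -0.32 and 0.11 over 9818 genes. These are correlations across genes, which share both libraries and are not replicates. Split at the median GC content of 49.6%, a split chosen after the values were seen, the 67 members at or below it had 5 higher (7.46%), 0 lower and a median of 0.12. The 67 members above it had 0 higher, 5 lower (7.46%) and a median of -0.15. Over all genes, without a split, 5.45% were higher and 5.74% lower. All genes were not split by GC content, so these counts cannot be read as particular to the members. Ube2v2 had a GC content of 37.4% and Ube3a of 39.8%, against 60.0% for Trim54 and 60.5% for Fbxl8.

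To show what these contents look like, the first 150 coding bases of the annotated transcript with the longest coding sequence (GENCODE M21, GRCm38) are given for 2 higher and 2 lower members, with every G and C in capitals. Usp16 and Ube3a are at the positions given above, Ube2l6 at chr2:84798828-84810335 and Trim35 at chr14:66297031-66311424, all on the plus strand.
Usp16: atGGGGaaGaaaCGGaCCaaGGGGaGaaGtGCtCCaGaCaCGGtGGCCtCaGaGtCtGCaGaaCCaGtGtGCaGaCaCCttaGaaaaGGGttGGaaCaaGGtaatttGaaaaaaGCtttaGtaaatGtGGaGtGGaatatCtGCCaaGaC
Ube3a: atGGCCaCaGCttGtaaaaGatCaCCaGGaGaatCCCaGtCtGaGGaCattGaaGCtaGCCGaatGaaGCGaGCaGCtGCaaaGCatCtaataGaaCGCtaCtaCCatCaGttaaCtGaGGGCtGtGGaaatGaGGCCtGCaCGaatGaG
Ube2l6: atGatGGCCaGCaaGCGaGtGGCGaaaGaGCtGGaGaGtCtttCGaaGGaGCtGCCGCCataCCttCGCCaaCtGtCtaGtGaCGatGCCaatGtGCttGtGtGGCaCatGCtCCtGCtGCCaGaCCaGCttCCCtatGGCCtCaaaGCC
Trim35: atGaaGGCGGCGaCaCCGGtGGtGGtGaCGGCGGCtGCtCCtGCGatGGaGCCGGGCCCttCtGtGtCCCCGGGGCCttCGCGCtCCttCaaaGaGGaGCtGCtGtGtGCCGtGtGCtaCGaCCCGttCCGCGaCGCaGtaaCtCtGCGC
G and C made up 47.3% of this stretch in Usp16, 48.7% in Ube3a, 56.7% in Ube2l6 and 67.3% in Trim35. Over the whole coding sequence the shares were 43.7%, 38.4%, 54.0% and 61.2%.

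With a trend on GC content and length over all genes removed, 6 of the 10 members past the rule remained past it. Trim54 (-2.11), Trim72 (-1.61), Ube2l6 (-0.78) and Trim35 (-0.68) were still lower, and Ube3a (0.87) and Usp16 (0.59) still higher. Ube2q2 at 0.57 and Fbxl8 at -0.58 lay just short, while Ube2v2 at 0.25 lay well inside. Trim13 (-0.73) and Ube2d1 (-0.62), not past the rule before, were then lower, so that 2 members were higher and 6 lower in place of 5 and 5. Both were outside the naming rule and were named for this change. The rank correlation of the members with GC content was then -0.15. Base composition and treatment were not varied apart here, and the part of either in these values was not tested.

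**Figure D4:**
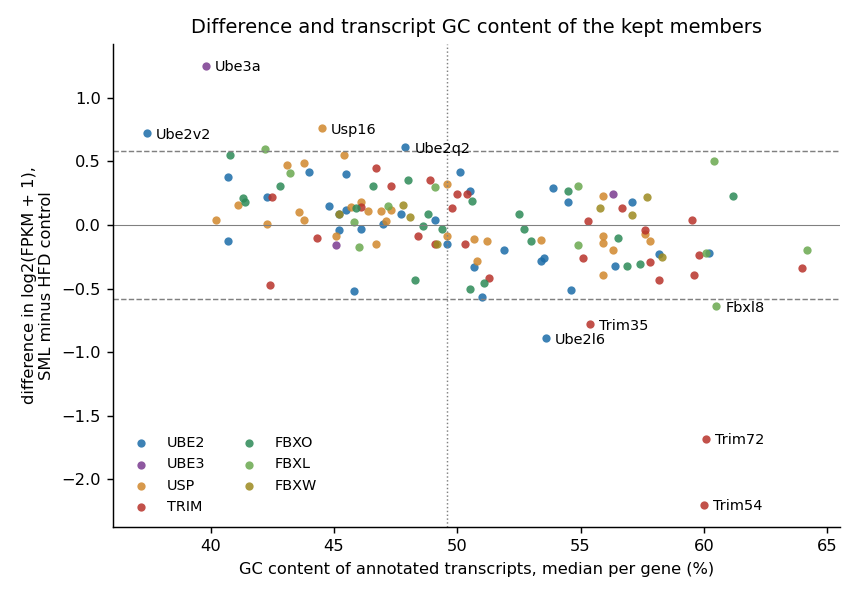
Difference between the libraries, log2(FPKM + 1) in SML minus HFD control, against the median GC content of each gene's annotated transcripts in percent, for the 134 kept members coloured by family. Dashed lines mark 1.5-fold and the dotted line the median GC content of 49.6%. The 5 higher members lie left of the dotted line and the 5 lower ones right of it. All genes were not split in this way.

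The deposited FPKM and count columns differed for some low members. In 23 of the 186 transcript rows of family genes the SML FPKM was listed at 0 although the SML count was above 0, against 8 rows for HFD control. The pattern was not particular to these families. Of the 14189 rows in the whole table, 1440 were of this kind for SML and 273 for HFD control, date symbols left out of both. The 23 rows belonged to 22 members, of which 16 were kept, and several held only a trace of a fragment. For 6 of the 7 members under the filter the whole SML value was such a 0. Usp45 was listed with 0.19 FPKM for HFD control and 0 for SML, yet its counts rested on 14 and 52 fragments and gave a ratio of 4.90 (2.76 to 9.86) in favour of SML. Trim33, a cofactor of SMAD signalling, was listed at 0.96 and 0 FPKM with 111 and 100 fragments and a ratio of 1.22 (0.925 to 1.62). Usp28 had a ratio of 1.06 (0.646 to 1.73) and Fbxo2 of 0.941 (0.355 to 2.38). Among kept members Usp15, which acts on TGF-beta receptors, had 2.23 and 2.26 FPKM but a count ratio of 1.43 (1.23 to 1.67), since 1 of its 2 rows had 104 SML fragments and an FPKM of 0. Usp45, Trim33, Usp28, Fbxo2, Usp15, Trim63, Fbxo32, Fbxl22 and Ube2v1 were outside the naming rule and were picked once their values were known, as were Isg15, Nedd8, Uba3, Sumo2, Sumo3, Ubb and Rps27a.

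**Figure D5:**
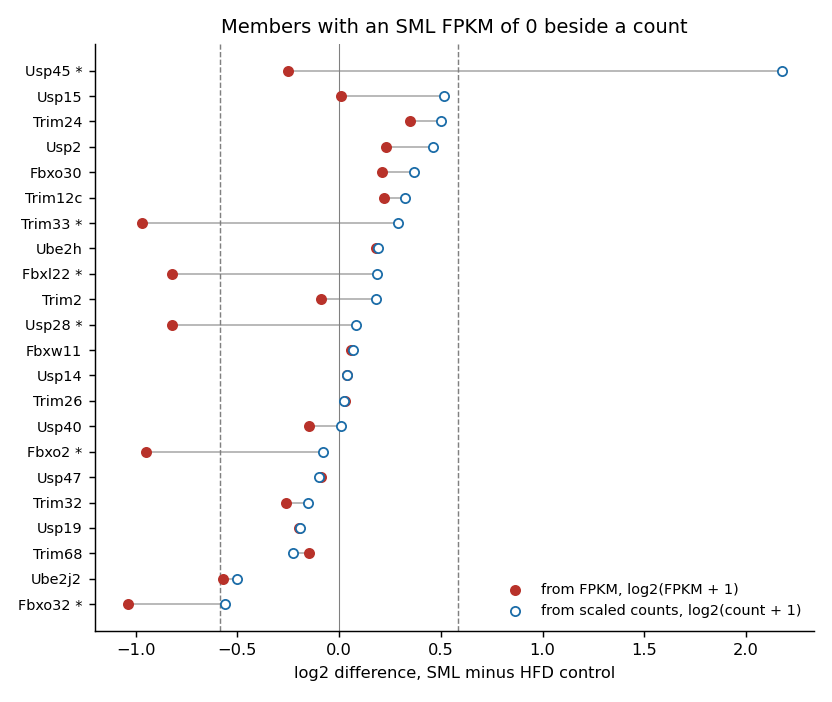
Difference between the libraries for the 22 members with an SML FPKM of 0 beside a count above 0 in at least 1 transcript row, once from FPKM (filled) and once from scaled counts (open), both on a log2 scale with 1 added. Stars mark members below the filter and dashed lines 1.5-fold. Usp45, Trim33, Fbxl22, Usp28 and Fbxo2 lie left of 0 by FPKM and at or right of about 0 by counts.

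The share of fragments given to each transcript row also moved. Of the 33 members with more than 1 row, 7 had a row whose share of the gene's counts shifted by at least 50 percentage points: Fbxo30, Fbxo34, Trim21, Trim24, Trim33, Trim68 and Usp1. In Trim24 a single row held 15 of 160 fragments of the gene in HFD control and 167 of 167 in SML. Usp1, the deubiquitinase of FANCD2 and PCNA, had 152 and 170 fragments in all, and 1 row went from 94.5% to 0.217%. Such rows overlap in sequence and their counts are estimates, so gene sums were used for all members. Fbxo30, Fbxo34, Trim24, Trim68 and Usp1 were likewise picked with their values known.

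The wider ubiquitin pathway was described from lists of genes with other symbols. Of 180 kept genes in 9 lists 9 were higher (5.00%) and 4 lower (2.22%), beside 5.45% and 5.74% of all genes, with a median of 0.03. Of the 4 ubiquitin genes 0 were higher and 1 was lower. Ubb and Rps27a were not past the rule, with ratios of 0.920 (0.883 to 0.959) and 1.21 (1.15 to 1.27). None of the 16 cullin-RING scaffold genes was past the rule (0 higher, 0 lower). Spop, a cullin adaptor, had 20.22 and 37.99 FPKM (ratio 1.88, 1.70 to 2.07). Btrc (beta-TrCP1), the relative of Fbxw11, had 2.45 and 0.19 FPKM, from 200 and 11 fragments, and was 12.8-fold lower (7.32 to 27.2). Its mean of 1.32 FPKM lay just above the filter, which it passed only through its HFD control value. Of 65 RING and U-box ligases 4 were higher and 1 lower, led by Mdm2, the ligase of p53, at 2.26 and 6.16 FPKM (ratio 2.69, 2.06 to 3.52), and Rnf114, which was 1.65-fold lower (1.42 to 1.91). Of 28 deubiquitinases outside the USP family 2 were higher and 0 lower, and of 16 HECT ligases 1 was higher, Wwp1 (ratio 1.90, 1.63 to 2.21), and 0 lower.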

How the data were processed

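Poly(A) RNA of brown adipose tissue was sequenced from 1 library per group with an Illumina TruSeq kit, per the labels' protocols. The authors deposited FPKM and a count column per transcript. CASAVA 1.8, Cufflinks and build mm10 are listed per the submitters' processing notes. No source used here gives the aligner, annotation release or filters. The deposited count columns are a scaled signal of estimated counts. Low values of single-transcript symbols moved in steps of 0.6375 (HFD control) and 0.8660 (SML), and 90.7% of 536 and 90.8% of 780 low values were whole multiples within 0.1, so counts were divided by the step to estimate fragments. Depth was 11995913 and 8502352 fragments, and kept members had 43 to 5335 fragments over both libraries.

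Transcript rows were summed per symbol with Python 3.11.15 and pandas 2.3.3. Genes needed a mean of at least 1 FPKM, the pseudocount was 1 and the size rule 1.5-fold. Intervals for ratios were Clopper-Pearson (95%, scipy 1.17.1). With 1 library per group no test was run. The computation was checked on simulated fragments. GC content and length came from GENCODE M21 transcripts. Deposited positions span whole loci, so annotated positions are printed. 5 promoter motifs were searched. Promoter sequences came from RefSeq (GRCm38.p6), where 102 of the 134 members had one. In 30 rows the symbol had become a date, and these were left out.

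Members and lists were chosen with earlier results of these data known. Named members were, per family, the 3 highest in level, up to 3 largest differences per direction, members of 6 role lists and 10 chosen genes. A few genes are not reported here, though the counts include them.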

Additional observations from a re-analysis of the deposited data

How the results depend on the processing

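No paired analysis was possible because each group was 1 library. Of 437 values of named members under the alternatives, 429 kept the direction of the difference. Reversal was counted only for members past the rule, and none reversed (0). Part of this agreement was fixed in advance. The other filters leave the value of a kept gene as it was, and a pseudocount cannot change its direction. Trim35, Trim54, Trim72, Ube2l6, Ube3a and Usp16 kept their calls under every alternative that kept the gene. For the other filters and without the muscle list these calls were fixed in advance too. The smaller pseudocount only widens a difference, so it ends no call. With the highest transcript per symbol the values stayed as they were, as each of these genes had 1 transcript row. Removing the GC and length trend ended 4 calls, those of Fbxl8, Ube2q2 and Ube2v2 among them, and added 2, Trim13 and Ube2d1, both lower.

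The numbers of genes past the rule depended on the processing, and where no construction shows why, the cause was not tested. With a pseudocount of 0.1 in place of 1, 847 of all genes, 15 other pathway genes, 10 members, 3 USP and 2 FBXL genes and 1 FBXO gene were higher, and 2 UBE2 genes were lower. With at least 5 FPKM, which tests fewer genes, 319 of all genes were higher and 305 lower, 5 other pathway genes were higher, and of the members 2 were higher and 2 lower, with UBE2 1 higher, UBE3 0 higher, TRIM 1 lower and FBXL 0 higher and 0 lower. With no filter 1115 of all genes (median -0.02), 8 other pathway genes and 11 members were lower, among them 1 USP, 5 TRIM, 2 FBXO and 2 FBXL genes. With at least 30 fragments in place of the FPKM filter these were 927 of all genes (median -0.01), 8 and 10, among them 1 USP, 5 TRIM, 1 FBXO and 2 FBXL genes. With the highest transcript per symbol 14 other pathway genes were higher and 8 lower, and 9 members were higher and 9 lower, with USP 2 higher, TRIM 2 higher and 5 lower, FBXO 1 lower and FBXW 1 lower. In the deposited count columns 883 of all genes, 16 other pathway genes, 10 members, 3 USP genes, 1 FBXO gene and 2 FBXL genes were higher. With totals made equal outside the 50 highest genes the median of all genes was 0.05, 2 USP genes and 1 FBXO gene were higher, and 2 other pathway genes were lower. After removal of the trend on GC content and length 346 of all genes, 5 other pathway genes, 2 members, 0 UBE2 and 0 FBXL genes were higher, and 1 other pathway gene, 2 UBE2 and 0 FBXL genes were lower. Without the muscle list 3 members and 1 TRIM gene were lower.

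Depth limits the low members: kept members had 43 to 5335 fragments over both libraries, with a median of 459. The intervals cover counting error only, and the spread between animals is unknown. A trend on length alone was not run, because GC content was at hand.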

Other observations

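The MARCH ligases, RING enzymes that sit in membranes, were not among the symbol patterns, and their symbols had been turned into dates in the deposited table. They were identified by position in the GRCm38 annotation and were looked at after the other results were known. March5, which acts at the outer mitochondrial membrane, had 87.14 FPKM (HFD control) and 99.98 FPKM (SML), with a count ratio of 1.27 (1.21 to 1.34). March2 had 134.87 and 151.15 FPKM and a ratio of 1.14 (1.07 to 1.21). March6, which acts on sterol synthesis enzymes in the endoplasmic reticulum, had 6.30 and 8.25 FPKM and a ratio of 1.31 (1.15 to 1.48), and March8 had 6.87 and 8.57 FPKM and 1.26 (1.08 to 1.45). March7 had 30 fragments in SML and a ratio of 0.906 (0.551 to 1.47). None of these 5 was past 1.5-fold. The date symbols also hid Marc1, a mitochondrial reductase and no ligase, which had 6.04 and 2.77 FPKM and a ratio of 0.459 (0.329 to 0.630).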
